A study of Gossypium hirsutum with 24 samples.

Results

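Transcripts of 3 genes for antioxidant enzymes were followed in developing cotton bolls and fibre-bearing ovules under drought: CSD2 (LOC107889076, listed as CSD2a and CSD2b), the catalase gene CAT2 (LOC107943729, also listed as SU2) and the glutathione transferase gene GST (LOC107889738). The members were all probe sets whose only gene in the annotation of the array is 1 of these 3 genes, and drought was compared with control at each of 4 stages. That gave 5 of the 697 probe sets with a single gene, and 5 of the 23973 probe sets tested: 1 for CSD2, 1 for CAT2 and 3 for GST. Of the probe sets tested, 46 were annotated to several genes and 23230 to none. No probe set was shared between a member and another gene in that annotation. In the assembly Gossypium_hirsutum_v2.1, CSD2 lies on chromosome A09 from 63671949 to 63674800, CAT2 on chromosome A02 from 107973124 to 107976436, and GST on chromosome A09 from 76262400 to 76263643, all 3 protein-coding.

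Cells form superoxide and hydrogen peroxide in chloroplasts, mitochondria and peroxisomes, and more of both when drought limits carbon fixation. Superoxide dismutases turn superoxide into hydrogen peroxide, catalases split hydrogen peroxide into water and oxygen, and glutathione transferases join glutathione to reactive or toxic compounds. In Arabidopsis, CSD2 is the copper/zinc superoxide dismutase of the chloroplast and CAT2 is the main leaf catalase, in peroxisomes. In cotton fibre, hydrogen peroxide has been studied as a signal for the turn from elongation to secondary wall.

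The plants were of the Gossypium hirsutum cultivar Bikaneri Nerma, grown in field plots. The control groups came from irrigated plots and the drought groups from plots where watering was stopped at peak flowering and rain was kept off with a shelter. RNA of 3 biological replicates per group was hybridised to the Affymetrix cotton GeneChip in 8 groups, 24 arrays in all, with bolls at 0 and 5 and fibre-bearing ovules at 10 and 20 days post anthesis (dpa, counted from the opening of the flower). The labels do not say which plot each replicate came from, so p-values measure the spread between these samples, and for 0 dpa the note on collection names leaf beside bolls. A whole organ with several tissues was measured, so fewer cells that express a gene and less RNA per cell cannot be told apart.

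The deposited values are log2 signals from which the median of the 6 arrays of a stage has been taken away for each probe set. Differences inside a stage are kept by this step and the level of a transcript is not, so levels cannot be ranked between stages or genes. Values below are these centred log2 signals, or log2 differences, drought minus control, with n = 3 in every group. The standard error (SE) after ± is from limma. For differences between probe sets within an array it is instead from the 3 drought and 3 control arrays of the stage alone. A probe set was called at a Benjamini-Hochberg adjusted p under 0.05 over all 23973 probe sets. Much of the array differed: 44.2%, 58.2%, 60.3% and 60.0% of probe sets were called at 0, 5, 10 and 20 dpa, and a call by itself sets no gene apart. Spike controls (poly-A transcripts of bacterial genes, mixed into the RNA before labelling) differed between drought and control arrays by 0.22, −0.24, 1.26 and 1.10 at the 4 stages, and scaling the arrays on them shifts every difference by the opposite amount. Of the probe sets called, 48.3%, 42.6%, 47.3% and 43.3% were higher in drought on the deposited scale, and 22.1%, 69%, 5.21% and 4.51% with spike scaling. The 5′ minus 3′ signal of 3 cotton control transcripts, which falls when RNA is degraded, differed by 0.93, 0.54, 0.59 and 2.16 and was higher in drought. It separated the drought from the control arrays at each of the 4 stages. Values adjusted for it rest on a slope fitted to the spread between arrays of the same group. Drought and this signal therefore cannot be told apart by the adjustment. Replicate arrays of a group differed with a standard deviation of 0.14 to 0.29.

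The drought response of the 3 genes changed with the stage, and all 5 probe sets were called at 10 dpa. At that stage, in ovules with elongating fibre, CSD2 was lower in drought by 1.38-fold and CAT2 was higher by 2.40-fold. GST was higher on all 3 probe sets, by 1.36-fold, 2.00-fold (on a probe set of antisense design) and 13.8-fold. At 5 and 20 dpa CAT2 was instead lower in drought, by 1.63-fold and 1.91-fold, and GST was lower on each probe set that passed. Over the stages 0, 5, 10 and 20 dpa, 0, 0, 4 and 0 of the 5 probe sets rose and 3, 4, 1 and 3 fell. With spike scaling 0, 0, 1 and 0 rose and 3, 2, 2 and 5 fell, and adjusted for the 5′ to 3′ difference 0, 0, 4 and 0 rose and 2, 4, 1 and 0 fell. Their median difference was −0.43, −0.63, 1.00 and −0.34, beside 0.01, −0.05, −0.02 and −0.07 for all probe sets tested. GST gives 3 of the 5 probe sets, so it weighs most in these counts, and at each stage the median is the value of a probe set annotated to GST. At 10 dpa the median is that of the antisense design, Ghi.1016.4.A1_s_at. Whether it reads the GST transcript was not tested, and its calls are also in the counts of 0, 5 and 10 dpa. The 3 falls at 0 dpa were all on GST. Of all probe sets, 21.4%, 24.8%, 28.5% and 26.0% rose and 22.9%, 33.4%, 31.8% and 34.0% fell at these stages. Drought and control arrays did not overlap for 4, 5, 5 and 3 of the 5, beside 56.6%, 67.3%, 62.8% and 62.7% of all probe sets.

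**Figure D1:**
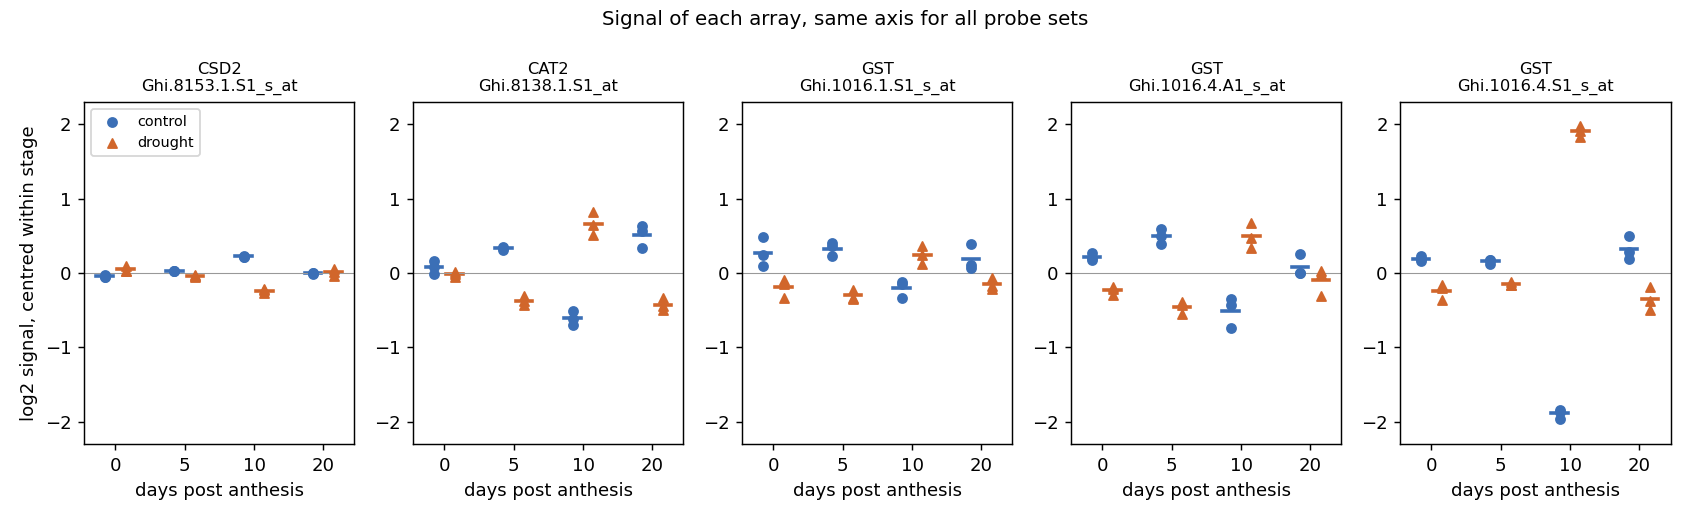
Centred log2 signal (vertical axis) of each of the 24 arrays by days post anthesis (horizontal axis) for the 5 probe sets, with control arrays as circles, drought arrays as triangles and group means as short lines. At 10 dpa drought lies below control for CSD2 and above it in the other 4 panels, with the widest gap for Ghi.1016.4.S1_s_at.

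CSD2 was read by the probe set Ghi.8153.1.S1_s_at, whose suffix marks probes that can bind related transcripts. At 10 dpa the control arrays stood at 0.21, 0.23 and 0.22 and the drought arrays at −0.27, −0.22 and −0.21. The groups lay apart, and drought was lower by 0.46 ± 0.04 on the log2 scale (log2 difference −0.46, 95% confidence interval −0.54 to −0.38, limma adjusted p = 1.23e-09). In size this fall stood at percentile 59.4 of all probe sets at 10 dpa.

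At the other stages CSD2 did not pass the test. At 0 dpa its difference was 0.09 ± 0.04 (limma adjusted p = 0.0561), with control arrays at −0.06, −0.02 and −0.05 and drought arrays at 0.02, 0.10 and 0.03. The groups did not overlap. At 5 dpa the difference was −0.07 ± 0.04 (limma adjusted p = 0.115), from 0.03 on all 3 control arrays to −0.03, −0.06 and −0.04 on the drought arrays, again without overlap. At 20 dpa the control arrays ran from −0.01 to 0.00 and the drought arrays from −0.04 to 0.06. The groups overlapped there, and the interval of the difference, −0.07 to 0.10, leaves out a fall of the size seen at 10 dpa.

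The change of the drought effect on CSD2 was itself tested. It moved by −0.39 ± 0.05 from 5 to 10 dpa (limma adjusted p = 5.87e-06) and back by 0.48 ± 0.05 from 10 to 20 dpa (limma adjusted p = 1.84e-07), steps at which 46.6% and 59.9% of all probe sets were called. The smaller change from 0 to 5 dpa, −0.17 ± 0.05, passed with limma adjusted p = 0.0144, beside 53.3% of all probe sets, but not with arrays centred on their medians (−0.12, adjusted p = 0.0724) nor with spike scaling, which turned it to 0.30. Spike scaling left CSD2 lower at 10 dpa, at −1.72, and put it at −1.08 at 20 dpa (adjusted p = 4.34e-08), a call that the deposited scale does not give.

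CAT2 was read by Ghi.8138.1.S1_at, a probe set whose suffix marks probes designed for 1 transcript. At 0 dpa the control arrays stood at 0.09, 0.17 and −0.01 and the drought arrays at −0.05, −0.02 and 0.01. The groups overlapped, with a difference of −0.10 ± 0.08 (95% confidence interval −0.27 to 0.07, limma adjusted p = 0.343). At 5 dpa control arrays stood at 0.33, 0.31 and 0.35 and drought arrays at −0.37, −0.44 and −0.31. Every drought array was below every control array, and CAT2 fell by 0.70 ± 0.08 on the log2 scale (limma adjusted p = 1.66e-07).

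At 10 dpa the order was turned. The control arrays stood at −0.62, −0.70 and −0.51 and the drought arrays at 0.82, 0.51 and 0.64. Catalase transcript was thus higher in all 3 drought samples, by 1.27 ± 0.08 (limma adjusted p = 1.14e-11), and by 1.41 when adjusted for the 5′ to 3′ difference. With arrays scaled on the spike controls the difference at 10 dpa was 0.01 (adjusted p = 0.972). The rise is thus seen on the deposited scale and not with spike scaling, and which scale holds was not tested.

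At 20 dpa the control arrays stood at 0.34, 0.56 and 0.63 and the drought arrays at −0.34, −0.50 and −0.44. The groups lay apart again, now with drought lower by 0.94 ± 0.08 on the log2 scale (log2 difference −0.94, limma adjusted p = 2.98e-09). The 5′ minus 3′ signal separated the groups at every stage. At 10 dpa it ran from −0.16 to 0.88 in drought and from −0.40 to −0.29 in control arrays. The gap was widest at 20 dpa, from 0.85 to 1.18 in drought and from −1.40 to −0.84 in control arrays. Adjusted for this signal, the difference of CAT2 at 20 dpa was −0.41 and did not pass (adjusted p = 0.153), while spike scaling gave −2.03.

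From stage to stage the drought effect on CAT2 changed by −0.60 ± 0.11 between 0 and 5 dpa, by 1.97 ± 0.11 between 5 and 10 dpa and by −2.20 ± 0.11 between 10 and 20 dpa (limma adjusted p = 0.000134, 8.40e-12 and 5.03e-13). The last of these changes was called under all alternatives that give it. With spike scaling the first was −0.14 (adjusted p = 0.673) and the second 0.47 (adjusted p = 0.0772), and neither passed. The mean drought effect over the 4 stages was −0.12 ± 0.04 (limma adjusted p = 0.0132), where 68.5% of all probe sets were called, and 0.14 adjusted for the 5′ to 3′ difference.

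**Figure D2:**
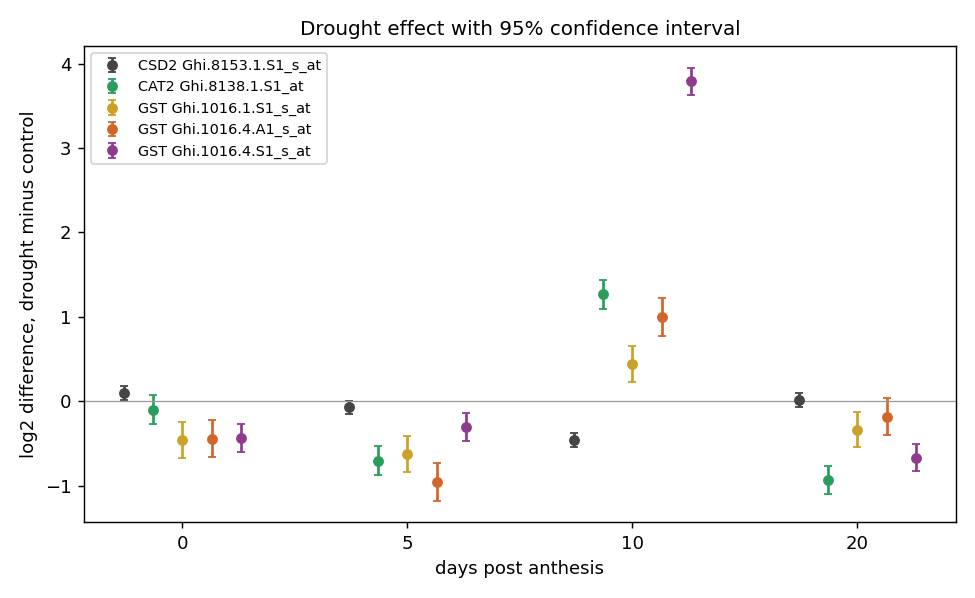
Log2 difference, drought minus control (vertical axis), by days post anthesis (horizontal axis) for the 5 probe sets, as points with 95% confidence intervals from the limma fit. CAT2 and the 3 GST probe sets are below or near 0 at 0, 5 and 20 dpa and above 0 at 10 dpa, where CSD2 has its only interval that lies well below 0.

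GST was read by 3 probe sets, Ghi.1016.1.S1_s_at, Ghi.1016.4.S1_s_at and Ghi.1016.4.A1_s_at, all with the suffix for probes that can bind related transcripts. The A in the last ID marks an antisense design, while the second ID is a sense design of the same cluster, 1016.4. Whether the antisense probe set reads the GST transcript was not tested, so its values are those of that probe set only. At 0 dpa the 3 gave nearly the same fall, −0.46 ± 0.10, −0.43 ± 0.08 and −0.44 ± 0.11 (limma adjusted p = 0.00106, 0.000138 and 0.00198). On Ghi.1016.1.S1_s_at, the most scattered of them, control arrays stood at 0.24, 0.09 and 0.48 and drought arrays at −0.33, −0.15 and −0.09. Drought arrays were below control arrays on all 3 probe sets. Spike scaling deepened the falls to −0.68, −0.65 and −0.66, and when adjusted for the 5′ to 3′ difference Ghi.1016.1.S1_s_at did not pass (−0.23, adjusted p = 0.269).

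At 5 dpa GST was lower in drought on all 3 probe sets, with no overlap between the groups. Ghi.1016.4.A1_s_at had the largest fall, from 0.59, 0.50 and 0.39 in control arrays to −0.56, −0.43 and −0.39 in drought arrays (−0.96 ± 0.11, limma adjusted p = 1.07e-07). Ghi.1016.1.S1_s_at stood at −0.63 ± 0.10 and Ghi.1016.4.S1_s_at at −0.30 ± 0.08 (limma adjusted p = 1.79e-05 and 0.00213). With spike scaling these last 2 were −0.39 and −0.06 and did not pass (adjusted p = 0.0894 and 0.800).

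The large difference at 10 dpa belonged to Ghi.1016.4.S1_s_at. Its control arrays stood at −1.96, −1.86 and −1.83 and its drought arrays at 1.97, 1.83 and 1.91. The groups lay far apart, and GST was 13.8-fold higher in drought on this probe set (3.79 ± 0.08, limma adjusted p = 7.27e-20), a size at percentile 98.7 of all probe sets. It was 2.53 with spike scaling, the only 1 of the 4 rises at 10 dpa that remained called there.

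The other probe sets of GST rose far less at 10 dpa. Ghi.1016.4.A1_s_at ran from −0.74, −0.34 and −0.43 in control arrays to 0.47, 0.67 and 0.34 in drought arrays, 1.00 ± 0.11 (limma adjusted p = 4.15e-08). Ghi.1016.1.S1_s_at ran from −0.14, −0.34 and −0.12 to 0.24, 0.12 and 0.37, 0.45 ± 0.10 (limma adjusted p = 0.000701). Both turned negative with spike scaling, to −0.26 (adjusted p = 0.117) and −0.81 (adjusted p = 9.22e-05). The direction of GST at 10 dpa on these 2 probe sets therefore depends on the scale, and on Ghi.1016.4.S1_s_at it does not.

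Within an array the probe sets can be set against each other without regard to scaling. The difference between Ghi.1016.4.S1_s_at and Ghi.1016.1.S1_s_at was larger in drought than in control by 3.34 ± 0.11 at 10 dpa, and that between Ghi.1016.4.S1_s_at and Ghi.1016.4.A1_s_at by 2.79 ± 0.15. In both cases the 3 drought arrays lay above the 3 control arrays, for which an exact two-sided permutation test gives p = 0.1, the smallest that 3 against 3 arrays allow (adjusted p = 0.141 over 24 such tests). At 0 dpa the 3 probe sets differed from each other by at most 0.02 in their drought effect. Of 122 genes with at least 2 probe sets, GST ranked 7 from the widest in the range of effects at 10 dpa, 3.34 against a median of 0.44. At 0, 5 and 20 dpa it ranked 119, 46 and 68. A range can widen with the number of probe sets, and GST has 3, for which the ranks were not adjusted. The size of the GST difference at 10 dpa thus depends on the probe set read, and which transcripts each one binds was not tested.

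At 20 dpa GST was lower in drought on Ghi.1016.4.S1_s_at, by 0.67 ± 0.08 on the log2 scale (log2 difference −0.67, limma adjusted p = 2.60e-07), with control arrays at 0.28, 0.18 and 0.49 and drought arrays at −0.18, −0.37 and −0.49. Ghi.1016.1.S1_s_at stood at −0.34 ± 0.10 (limma adjusted p = 0.00760), and at −0.23 without control replicate 2, which did not pass (adjusted p = 0.0632). Ghi.1016.4.A1_s_at had overlapping groups and did not pass (−0.18 ± 0.11, limma adjusted p = 0.140). Adjusted for the 5′ to 3′ difference, Ghi.1016.4.S1_s_at gave −0.45 (adjusted p = 0.165) and Ghi.1016.1.S1_s_at turned to 0.19 (adjusted p = 0.695), and neither passed. With spike scaling all 3 probe sets were called lower at 20 dpa, at −1.76, −1.43 and −1.28.

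The change of the GST effect around 10 dpa was tested as well. From 5 to 10 dpa it moved by 4.09 ± 0.11 on Ghi.1016.4.S1_s_at, 1.96 ± 0.15 on Ghi.1016.4.A1_s_at and 1.07 ± 0.14 on Ghi.1016.1.S1_s_at, and the highest limma adjusted p of these 3 was 2.74e-06. From 10 to 20 dpa it moved by −4.46 ± 0.11, −1.18 ± 0.15 and −0.78 ± 0.14 in the same order, with limma adjusted p of at most 8.05e-05. On Ghi.1016.1.S1_s_at spike scaling turned the first of these steps to −0.43 (adjusted p = 0.110), and the second, at −0.62, did not pass (adjusted p = 0.0521), nor did the first step of Ghi.1016.4.A1_s_at, at 0.45 (adjusted p = 0.0549). Adjusted for the 5′ to 3′ difference, the second step of Ghi.1016.1.S1_s_at was −0.40 and did not pass (adjusted p = 0.162). The mean effect over the 4 stages was 0.60 ± 0.04 on Ghi.1016.4.S1_s_at (0.01 with spike scaling), −0.15 ± 0.05 on Ghi.1016.4.A1_s_at and −0.24 ± 0.05 on Ghi.1016.1.S1_s_at. The positive mean of Ghi.1016.4.S1_s_at comes from 10 dpa alone (3.79), since this probe set was lower in drought at 0, 5 and 20 dpa. Adjusted for the 5′ to 3′ difference, the mean of Ghi.1016.4.A1_s_at was −0.34 and did not pass (adjusted p = 0.0694), and that of Ghi.1016.1.S1_s_at was 0.01 (adjusted p = 0.961).

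**Figure D3:**
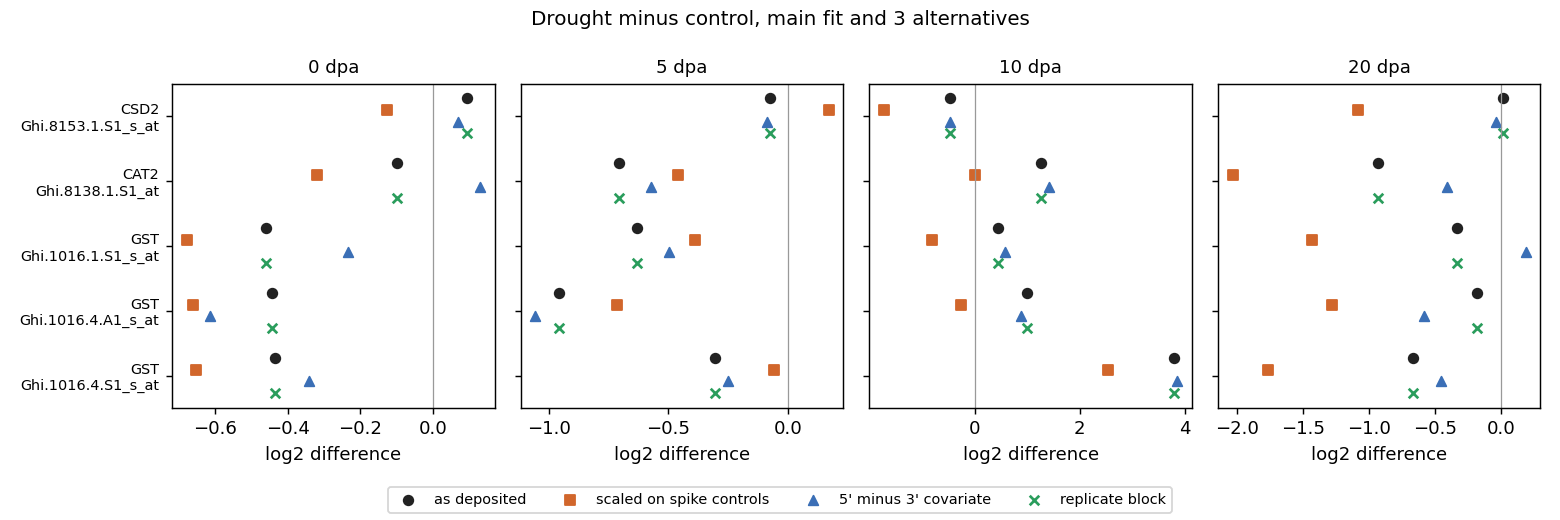
Log2 difference, drought minus control (horizontal axis, a separate range per stage), of the 5 probe sets as deposited, with arrays scaled on spike controls, adjusted for the 5′ to 3′ difference and with replicate number as a block. At 10 dpa spike scaling moves CAT2 to 0.01 and leaves Ghi.1016.4.S1_s_at at 2.53, and at 20 dpa the adjustment for 5′ to 3′ difference moves CAT2 from −0.94 to −0.41.

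Superoxide dismutases form hydrogen peroxide and catalases split it, though in Arabidopsis CSD2 and CAT2 lie in different parts of the cell. The transcripts of CSD2 and CAT2 were also compared within each array, where a shift of the whole array cancels. CAT2 minus CSD2 was higher in drought than in control by 1.73 ± 0.12 at 10 dpa, and lower at the other stages, at −0.19 ± 0.05, −0.63 ± 0.03 and −0.95 ± 0.11 for 0, 5 and 20 dpa. At each stage the 3 drought arrays lay on 1 side of the 3 control arrays (exact two-sided permutation p = 0.1, the smallest possible, adjusted p = 0.141). GST on Ghi.1016.1.S1_s_at, minus CSD2, gave the same order of signs, 0.90 ± 0.10 at 10 dpa and −0.55 ± 0.14, −0.56 ± 0.07 and −0.35 ± 0.11 at 0, 5 and 20 dpa. GST on that probe set minus CAT2 was −0.36 ± 0.18 at 0 dpa, −0.82 ± 0.10 at 10 dpa and 0.60 ± 0.12 at 20 dpa, each without overlap (exact permutation p = 0.1, adjusted p = 0.141). At 5 dpa it was 0.07 ± 0.09, with overlapping arrays (exact permutation p = 0.5). These within-array differences were not adjusted for the 5′ to 3′ difference. With that adjustment at 20 dpa, CAT2 stood at −0.41, CSD2 at −0.04 and GST on Ghi.1016.1.S1_s_at at 0.19, and none passed. GST then stood above CSD2, the reverse of the order given here for 20 dpa.

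The rest of the antioxidant system was read from a list matched on gene names, with 1 probe set per gene. Beside the 3 members it held 18 genes, among them 2 superoxide dismutases, 3 genes of the ascorbate-glutathione cycle, 1 further glutathione transferase, 1 alternative oxidase and 11 genes named pod, POX or peroxidase. No peroxiredoxin, thioredoxin, glutaredoxin, metallothionein or NADPH oxidase gene matched by name. Of the 18 genes 2 rose and 10 fell at 0 dpa, 6 rose and 8 fell at 5 dpa, 5 rose and 8 fell at 10 dpa, and 2 rose and 14 fell at 20 dpa. Among all probe sets 44.2%, 58.2%, 60.3% and 60.0% were called at these stages, where 21.4%, 24.8%, 28.5% and 26.0% rose and 22.9%, 33.4%, 31.8% and 34.0% fell. The median differences of the 18 genes were −0.27, −0.11, −0.12 and −0.62. With spike scaling 1 rose and 11 fell at 0 dpa, 7 rose and 5 fell at 5 dpa, 3 rose and 14 fell at 10 dpa, and all 18 fell at 20 dpa. Adjusted for the 5′ to 3′ difference, 1 rose and 8 fell at 0 dpa, 6 rose and 9 fell at 5 dpa, 6 rose and 8 fell at 10 dpa, and 0 rose and 7 fell at 20 dpa. Apart from the peroxidases, the 7 others had medians of 0.05, −0.31, −0.13 and −0.14. On the deposited scale 2, 1, 1 and 2 of these 7 rose and 1, 4, 3 and 4 fell. Most falls of the list at 0 and 20 dpa were thus on the peroxidase names, of which 9 and 10 fell.

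FeSOD (LOC107894059), an iron enzyme known from chloroplasts, passed only at 20 dpa, with a rise of 0.64 ± 0.12 (limma adjusted p = 0.000139) that was 0.03 when adjusted for the 5′ to 3′ difference and −0.46 with spike scaling. At 10 dpa FeSOD stood at 0.21 ± 0.12 and did not pass, and it was called lower with spike scaling (−1.05). MnSOD (LOC107897935), a manganese enzyme known from mitochondria, has 2 probe sets, given apart here. The one that stands for the gene in the list passed only at 5 dpa, with a fall of 0.39 ± 0.13 on the log2 scale (limma adjusted p = 0.0160), and stood at −0.13 ± 0.13 at 10 dpa. The other was called at all 4 stages, at 0.21, −0.46, −0.54 and −0.23, each ± 0.04, and at 10 dpa its fall (limma adjusted p = 4.66e-10) stood beside −0.46 for CSD2, a difference that was not tested. With spike scaling the 2 stood at −0.14 and −0.21 at 5 dpa and neither passed, and at −1.39 and −1.80 at 10 dpa, both called. The rise at 0 dpa on the second probe set was −0.01 with spike scaling and 0.13 adjusted for the 5′ to 3′ difference, and passed in neither.

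The other glutathione transferase gene, LOC107948407, also named GST, was lower in drought at 10 dpa, where LOC107889738 was higher on the deposited scale. It fell at 10 dpa by 0.51 ± 0.06 on the log2 scale, at 5 dpa by 0.63 ± 0.06, and at 20 dpa it was 3.56-fold lower, at −1.83 ± 0.06 (limma adjusted p = 8.10e-08, 4.16e-09 and 1.67e-16). At 0 dpa it stood at 0.05 ± 0.06 and did not pass. The falls at 5, 10 and 20 dpa remained negative with spike scaling, at −0.39, −1.77 and −2.93.

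A further route removes hydrogen peroxide with ascorbate, which is then restored. DHAR1 (LOC107959887), a dehydroascorbate reductase, which restores ascorbate with glutathione, fell by 0.98 ± 0.08 on the log2 scale at 10 dpa (limma adjusted p = 4.28e-10) and stood at −0.31 ± 0.08 at 5 dpa (−0.06 with spike scaling, adjusted p = 0.776) and −0.27 ± 0.08 at 20 dpa, each called. Adjusted for the 5′ to 3′ difference, DHAR1 at 20 dpa was −0.19 and did not pass (adjusted p = 0.616). The ascorbate peroxidase gene sAPX (LOC107924317) was at −0.30 ± 0.10 at 10 dpa and 0.77 ± 0.10 at 20 dpa, both called (limma adjusted p = 0.0160 and 1.82e-06), and at 0.30 ± 0.10 at 0 dpa, which was called (limma adjusted p = 0.0220) but not with spike scaling (0.08) or adjusted for the 5′ to 3′ difference (−0.01). At 20 dpa it was at 0.04 when adjusted for the 5′ to 3′ difference and −0.33 with spike scaling. The ascorbate peroxidase gene gAPX (LOC107927982) was called at all 4 stages with small differences, −0.25, 0.28, 0.22 and −0.14, the third of which was −1.04 with spike scaling. The last was −0.12 adjusted for the 5′ to 3′ difference and did not pass (adjusted p = 0.574).

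AOX1 (LOC107939301), an alternative oxidase, which limits superoxide formation in mitochondria, was read by a probe set of antisense design. It rose by 1.61 ± 0.11 at 0 dpa and fell by 2.95 ± 0.11 at 5 dpa and by 1.59 ± 0.11 at 20 dpa on the log2 scale. At 10 dpa, the stage of the CAT2 and GST rises, it stood at −0.10 ± 0.11 and did not pass (−1.36 with spike scaling).

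Genes of the peroxidase names had the widest differences of the list at 10 dpa. Those that rose were pod10 (LOC107914313, on a probe set of antisense design) at 5.88 ± 0.10, pod7 (LOC107936187) at 3.99 ± 0.08, POX5 (LOC107914564) at 2.19 ± 0.08 (1.66 ± 0.13 on its antisense probe set, both lower with spike scaling, at 0.93 and 0.40) and pod1 (LOC107945392) at 1.20 ± 0.06, the last at −0.06 with spike scaling. Those that fell included pod5 (LOC107922335), which was 3.99-fold lower, POX10 (LOC107937645) at −1.03 ± 0.11 and the genes named peroxidase, LOC107905931 at −1.10 ± 0.06 and LOC107951876 at −1.13 ± 0.11. POX9 (LOC107958589), on a probe set of antisense design, also fell, at −1.44 ± 0.11. At the other stages pod10 and pod7 were lower in drought at 0 and 20 dpa, at −2.09 and −1.23 for pod10 and −3.48 and −2.15 for pod7, and they were higher at 5 dpa, at 0.77 and 1.39. Adjusted for the 5′ to 3′ difference, pod10 at 20 dpa was −0.72 and did not pass (adjusted p = 0.0727).

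**Figure D4:**
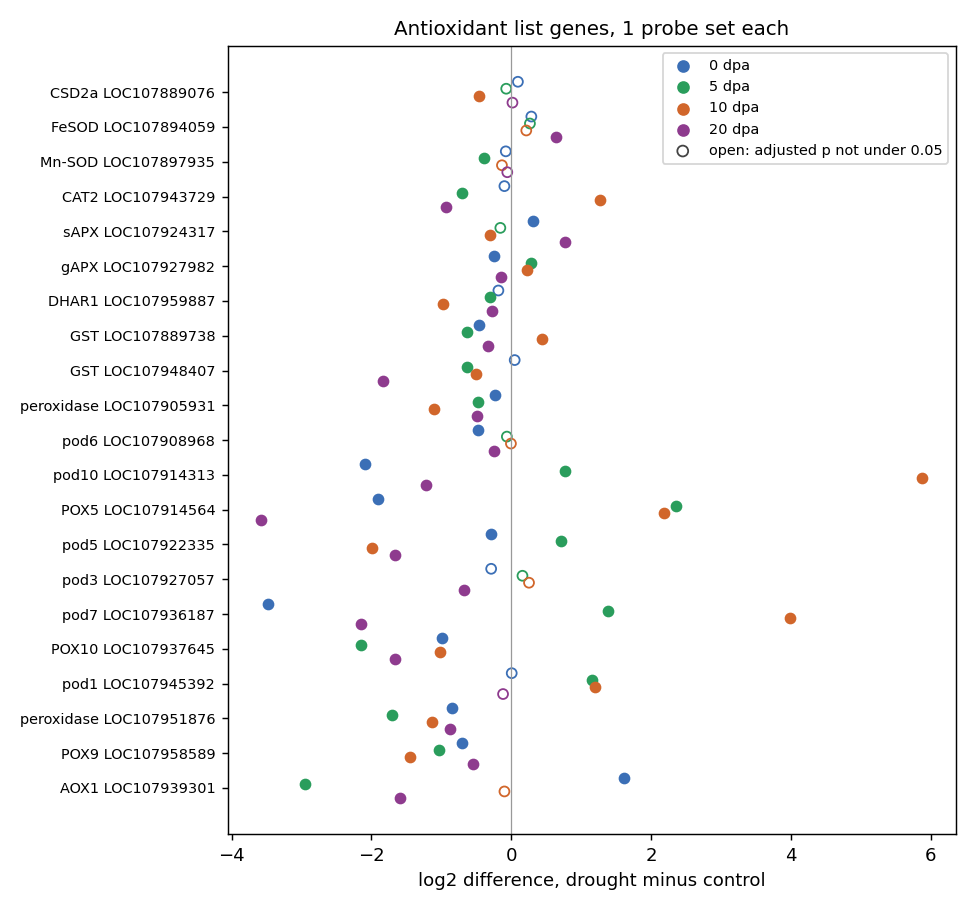
Log2 difference, drought minus control (horizontal axis), for the 3 members and the 18 other genes of the antioxidant list, 1 row per gene and 1 colour per stage, with open circles where the adjusted p was not under 0.05. At 10 dpa pod10 (5.88) and pod7 (3.99) lie farthest to the right, and CSD2 (−0.46) and DHAR1 (−0.98) lie left of 0 while CAT2 (1.27) lies right of it.

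Markers of other tissues were sparse on the annotated part of the array. RCA1 (LOC107942112), the only matched marker of green tissue, was 0.37 ± 0.13 at 0 dpa and −3.46 ± 0.13 at 5 dpa, where CAT2 was also lower, −0.30 ± 0.13 at 10 dpa, without passing, and −0.85 ± 0.13 at 20 dpa. Its call at 0 dpa was lost with spike scaling (0.15, adjusted p = 0.588) and that at 20 dpa when adjusted for the 5′ to 3′ difference (−0.41, adjusted p = 0.50), while at 10 dpa spike scaling gave −1.56, which was called. Of 9 fibre genes, 1, 6, 7 and 7 fell and 1, 1, 0 and 1 rose at the 4 stages, with medians of 0.05, −0.995, −0.63 and −0.71, where 22.9%, 33.4%, 31.8% and 34.0% of all probe sets fell. With spike scaling 1, 6, 9 and 9 of them fell and 0, 1, 0 and 0 rose, and adjusted for the 5′ to 3′ difference 0, 6, 5 and 5 fell and 1, 1, 0 and 0 rose. Of 2 seed storage genes, LegA (LOC107916455) fell by 1.81 ± 0.11 on the log2 scale at 20 dpa, and no other value of either passed. The part of these tissues in the differences of CSD2, CAT2 and GST was not tested, and since levels were removed from the values, none of these markers can be called present or absent.

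Likeness of pattern was measured as the root mean square difference between the 4 drought effects of a member and those of 245 other named genes, over 4 stages. Closest to CSD2 were the pectate lyase gene Pel (LOC107949717) at 0.12, CBP2 (LOC107913771) at 0.12 and the annexin gene AnnGh1 (LOC107905123) at 0.14. Closest to CAT2 were GHMYB36 (LOC107941297), a gene of the MYB transcription factor family, at 0.42, COL5-D (LOC107906795) at 0.51, and GST on Ghi.1016.1.S1_s_at at 0.54. GHMYB36 had differences of −0.16, −1.31, 1.30 and −1.51 at the 4 stages, beside −0.10, −0.70, 1.27 and −0.94 for CAT2. COL5-D had −0.10, 0.08, 0.60 and −0.94, without the fall of CAT2 at 5 dpa. Closest to GST on Ghi.1016.1.S1_s_at were CMK1 (LOC107888930) at 0.29, FLA6 (LOC107898811), a fasciclin-like arabinogalactan protein gene, at 0.35 and Rac13 (LOC107924928) at 0.35. At 10 dpa CMK1 and Rac13 stood at −0.004 and −0.001 and FLA6 at 0.28, beside 0.45 for GST. CMK1 and Rac13 thus lacked its rise at that stage, and FLA6 was at 0.21 at 20 dpa, where GST was at −0.34. Nothing came as close to GST on Ghi.1016.4.S1_s_at, for which the nearest gene was the transcription factor gene WRKY15 (LOC107931629) at 0.76, with 2.76 at 10 dpa. At 5 dpa WRKY15 stood at 0.68, where Ghi.1016.4.S1_s_at was at −0.30.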

How the data were processed

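Transcripts were measured on 24 Affymetrix cotton arrays, 3 per group, in control and drought plants at 4 stages. The authors deposited log2 values made by RMA, per the submitters' processing notes; a version was not given. Within each stage the median of the 6 arrays is 0 for every probe set, to within 5e-07, a centring that no label states. A filter on dim probe sets was planned and could not be made. Precision rests on the number of arrays per group.

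After leaving out 159 control probe sets of 24132, limma 3.58.1 in R 4.3.3 fitted 8 group means to all arrays (lmFit, eBayes, 16 residual degrees of freedom). P-values are two-sided. Contrasts were drought minus control per stage, its change between consecutive stages and its mean. The fit was tested on simulated data. Slide and scan batches were not analysed here.

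Members and lists were chosen with earlier results of these data known. Genes were matched through their synonyms in the RefSeq table. For lists and likeness 1 probe set stood for a gene, chosen by sense design, then by suffix, then by ID. Named genes were the members, list genes called at 2 or more stages (at most 10, by smallest adjusted p) and the 3 genes most like each member. FeSOD, MnSOD, sAPX, gAPX, DHAR1, POX9, the markers, WRKY15 and the second probe sets of MnSOD and POX5 were named after their values were seen. The comparisons within arrays were added then. Spike scaling used 36 poly-A control probe sets of 4 bacterial transcripts.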

Additional observations from a re-analysis of the deposited data

Results flagged for a closer look

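The drought effect differed between consecutive stages, by the test of that difference in limma, for 13 of the 15 comparisons of the 5 probe sets. For CSD2 the differences were −0.17 from 0 to 5 dpa, −0.39 from 5 to 10 dpa and 0.48 from 10 to 20 dpa. For CAT2 they were −0.60, 1.97 and −2.20 in the same order. For GST they were 1.07 and −0.78 from 5 to 10 and from 10 to 20 dpa on Ghi.1016.1.S1_s_at, 4.09 and −4.46 on Ghi.1016.4.S1_s_at, and −0.51, 1.96 and −1.18 over all 3 steps on Ghi.1016.4.A1_s_at. The step from 0 to 5 dpa was not called on Ghi.1016.1.S1_s_at (−0.17, adjusted p = 0.344) and Ghi.1016.4.S1_s_at (0.13, adjusted p = 0.335). Among all probe sets 53.3%, 46.6% and 59.9% were called at these steps.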

How the results depend on the processing

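In 418 of the 420 values made by leaving out 1 array, the direction and the side of the threshold of the 5 probe sets were as reported. The exceptions were CSD2 at 20 dpa, −0.0085 without drought replicate 2 (range −0.0085 to 0.041), and GST on Ghi.1016.1.S1_s_at at 20 dpa, −0.23 without control replicate 2 (range −0.40 to −0.23). Robust empirical Bayes and a fit of each stage alone changed no call. With replicate number as a block only the change of the CSD2 effect from 0 to 5 dpa (such changes are called steps here) lost its call (−0.17, adjusted p = 0.0511). The correlation of same-numbered drought and control arrays ran from −0.10 to 0.12 over 12 pairs, and 1 of the 12 drought arrays correlated best with the control of its own number, so the numbers were not taken as pairs. Quantile normalization within stages and median centring each took the same step below the threshold (both −0.12), and array weights put CSD2 past it at 0 and 5 dpa (0.11 and −0.073).

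Spike scaling turned CSD2 at 0, 5 and 20 dpa (−0.13, 0.17 and −1.08) and in the step from 0 to 5 dpa (0.30). It turned Ghi.1016.1.S1_s_at at 10 dpa (−0.81) and in the steps from 0 to 5 (0.29) and 5 to 10 dpa (−0.43), and Ghi.1016.4.A1_s_at at 10 dpa (−0.26). Calls were lost for CAT2 at 10 dpa (0.0065) and in the first 2 steps (−0.14 and 0.47), for Ghi.1016.1.S1_s_at at 5 dpa (−0.39) and in the last step (−0.62), for Ghi.1016.4.S1_s_at at 5 dpa (−0.060) and in the mean (0.013), and for Ghi.1016.4.A1_s_at in the first 2 steps (−0.051 and 0.45). Calls were gained for Ghi.1016.4.A1_s_at at 20 dpa (−1.28) and Ghi.1016.4.S1_s_at in the first step (0.59). By construction every difference moved by 1 amount per stage, and the probe sets called were 6578, 22746 and 22579 at 0, 10 and 20 dpa and 23097 in the step from 5 to 10 dpa.

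Adjustment for the 5′ to 3′ difference turned CAT2 at 0 dpa (0.13) and in the mean (0.14), CSD2 at 20 dpa (−0.041) and Ghi.1016.1.S1_s_at at 20 dpa (0.19) and in the mean (0.011). Calls were lost for CAT2 and Ghi.1016.4.S1_s_at at 20 dpa (−0.41 and −0.45), for Ghi.1016.1.S1_s_at at 0 dpa (−0.23) and in the last step (−0.40), and for Ghi.1016.4.A1_s_at in the mean (−0.34). The probe sets called were 5400 at 0 dpa, 4940 at 20 dpa and 9090 in the mean. The cause was not tested. The slope on the 5′ minus 3′ signal came only from arrays of the same group, while the signal separated drought from control at every stage. At 20 dpa the adjusted differences carry that slope beyond the spread inside the groups. A call lost there cannot be assigned to RNA quality or to drought.

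Holm adjustment leaves the values and took away the calls of GST at 0 dpa (−0.46, −0.44 and −0.43), of Ghi.1016.1.S1_s_at at 5, 10 and 20 dpa (−0.63, 0.45 and −0.34) and in the last step (−0.78), of Ghi.1016.4.S1_s_at at 5 dpa (−0.30), of the first step of CSD2, CAT2 and Ghi.1016.4.A1_s_at (−0.17, −0.60 and −0.51), and of the means of CSD2, CAT2, Ghi.1016.1.S1_s_at and Ghi.1016.4.A1_s_at (−0.11, −0.12, −0.24 and −0.15). It called 2482, 7121, 8475 and 6576 probe sets at the 4 stages, 4935, 4278 and 7502 in the 3 steps and 9753 in the mean. A filter on dim probe sets was not run, since the centred values hold no level.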
